A study of Mus musculus with 9 samples.

Results

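The 36 genes described here serve cholesterol and fatty acid synthesis, its control by the SREBP regulators, and sterol transport, among 56691 genes in the table. They were chosen by symbol, each symbol had 1 row, and all 36 passed the filter on low counts. The mevalonate steps have 6 members, the steps from squalene synthesis to cholesterol 11, fatty acid synthesis and desaturation 10, the regulators 4, and sterol supply and transport 5. RNA was sequenced from wild-type NIH/3T3 cells, an immortal line of mouse fibroblasts, in 3 groups of 3 libraries. Control cells have no treatment in their labels. Cells of the UVA group, whose titles read MOCK, were irradiated with UVA at 10 J/cm2. Co-treated cells, whose titles read AA, received that UVA dose together with alpha-arbutin, which is hydroquinone joined to glucose. No arbutin dose and no time of harvest are stated in the labels. Nor do they say whether replicates were separate cultures, so p-values measure only the spread between these libraries, which may be technical. The study's stated interest was photodamage, in particular DNA repair and collagen.

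Cells build cholesterol from acetyl-CoA by way of HMG-CoA, mevalonate, farnesyl diphosphate, squalene and lanosterol, and build fatty acids from acetyl-CoA through malonyl-CoA. Both routes are driven by the membrane-bound transcription factors SREBP1 and SREBP2, encoded by Srebf1 and Srebf2, which the escort protein SCAP carries to the Golgi for cleavage when sterol is scarce. When sterol is plentiful, INSIG proteins hold SCAP back, and the nuclear receptor LXR raises the sterol exporters ABCA1 and ABCG1.

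SREBP acts at proximal promoters together with NF-Y and SP1. The promoters below are shown because their genes went different ways with UVA: Fasn, Idi1 and Insig1 were called higher, Acss2 and Srebf2 lower, and Hmgcs1 was not called. They are the bases just before the RefSeq gene start on GRCm38.p6, a different build from the mm39 of the gene coordinates given later, written 5' to 3' along the gene. Capitals mark matches on either strand to TCACNCCA or ATCACCC (forms of the sterol regulatory element), CCAAT (the NF-Y box) and CACGTG (the E-box). The stretch shown is 150 bases, but 170 for Srebf2, so matches farther from the start are not seen. Among these are CCAAT matches 216 bases before the start of Insig1 and 176 and 237 before that of Hmgcs1.
Fasn (chr11:120824548-120824697, minus strand): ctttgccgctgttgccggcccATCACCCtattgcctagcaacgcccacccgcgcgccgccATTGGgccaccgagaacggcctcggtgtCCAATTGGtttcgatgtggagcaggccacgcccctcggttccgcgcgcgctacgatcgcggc
Idi1 (chr13:8885456-8885605, plus strand): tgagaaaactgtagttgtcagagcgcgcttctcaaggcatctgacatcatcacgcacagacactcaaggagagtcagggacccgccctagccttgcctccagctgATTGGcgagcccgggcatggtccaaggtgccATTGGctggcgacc
Acss2 (chr2:155517893-155518042, plus strand): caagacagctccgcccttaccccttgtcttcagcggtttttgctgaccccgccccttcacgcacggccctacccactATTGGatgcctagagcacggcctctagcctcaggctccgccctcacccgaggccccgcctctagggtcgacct
Srebf2 (chr15:82147099-82147268, plus strand): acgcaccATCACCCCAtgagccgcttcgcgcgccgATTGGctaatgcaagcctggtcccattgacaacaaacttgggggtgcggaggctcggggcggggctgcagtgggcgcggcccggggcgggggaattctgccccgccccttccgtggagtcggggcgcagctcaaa
Insig1 (chr5:28071262-28071411, plus strand): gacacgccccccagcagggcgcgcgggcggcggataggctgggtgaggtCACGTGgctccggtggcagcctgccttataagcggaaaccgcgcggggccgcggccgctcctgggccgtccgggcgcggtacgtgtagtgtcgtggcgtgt
Hmgcs1 (chr13:119690201-119690350, plus strand): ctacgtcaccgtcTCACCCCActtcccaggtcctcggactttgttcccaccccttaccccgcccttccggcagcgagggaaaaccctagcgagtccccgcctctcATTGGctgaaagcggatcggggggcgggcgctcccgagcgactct

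RefSeq promoters were found for 27 of the 36 genes, 33 promoters in all, and were searched over 250 bases before the start on both strands. CCAAT lay in 21 of the 33 (63.6%), against 33.8% of all 32851 promoters in that table. GGGCGG, the GC box read by SP1, lay in 24 (72.7%, against 32.7%), and CACGTG in 7 (21.2%, against 6.02%). The element TCACNCCA lay in 3 (9.09%, against 3.67%), those of Hmgcs1, Msmo1 and Srebf2. Its other form, ATCACCC, lay in 3 (9.09%, against 2.28%), those of Fasn, Nsdhl and Srebf2. Both forms overlap in the Srebf2 promoter, and CCAAT matches on opposite strands overlap in that of Fasn. The direct-repeat element of LXR was searched only in a fixed form, which lay in 5 of all 32851 promoters (0.0152%). It lay in 0 member promoters, but a form this rare was hardly to be found among 33. That search therefore cannot show whether members have or lack LXR elements. The 20 genes with CCAAT fell on both sides of the UVA comparison: Fasn, Idi1, Insig1 and Srebf1 were called higher, Acss2, Dhcr7, Elovl5 and Srebf2 lower, and the other 12 (Cyp51, Ebp, Hmgcs1, Hsd17b7, Lss, Msmo1, Mvd, Mvk, Nsdhl, Pmvk, Sc5d and Tm7sf2) neither. These are matches of letters, chosen after the gene values were seen, and no binding was measured. The comparison set was not limited to promoters of genes expressed here. The part of expression level or base content in these shares was not tested.

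Library totals ran from 16298348 to 20862894 counts, of which the 36 genes held 0.952 to 1.05%. Levels below are CPM, counts scaled to library size with TMM factors, unless FPKM is named. Replicate 3 of UVA was the lowest of its group for 28 of the 36 genes and replicate 3 of the co-treated group for 29, so results that rest on them are also given without them. All 9 fibroblast markers were tested. They summed to 11574 to 11934 CPM in control, 9041 to 9215 in UVA and 8728 to 9211 in co-treated cells. With UVA 6 of them fell, among them Col1a1 at -1.71 ± 0.07 and Thy1 at -1.17 ± 0.09 in log2, and 2 rose, Vim at 0.40 ± 0.04 and Cd44 at 0.39 ± 0.04. Of 6 macrophage and immune markers, which summed to at most 7.20 CPM, Cd68 rose by 0.67 ± 0.20 and Ptprc was lower at -2.82 ± 0.60, while Cd3e was at 0. The 8 adipocyte markers, listed because fat cells are rich in lipogenic enzymes, summed to 31.6 to 33.6 CPM, 14.2 to 17.3 and 15.9 to 19.1 in the same order. Lep was at 0, and Adipoq, Plin1, Cfd and Cebpa had under 10 counts over all libraries. Most of that sum was Lpl, lipoprotein lipase, at 30.9 ± 0.685 CPM in control and 14.3 ± 1.58 in UVA cells (SD, n = 3). The part of these markers in the results below was not tested. In bulk RNA, fewer cells with a transcript and less of it per cell cannot be told apart.

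In control cells nearly all synthesis genes were well expressed, and the sterol exporters were almost silent. On the FPKM scale, which corrects for gene length, members ran from 0.06 to 520.5 with a median of 33.5, and 31 of 36 lay at or above the median of all tested genes. Scd2, which encodes a stearoyl-CoA desaturase that puts the first double bond into fatty acids, was the highest member at 520.5 ± 6.78 FPKM (SD, n = 3). Its close relative Scd1 stood at 72.3 ± 1.19 FPKM, so Scd2 was 7.19 times as high. Reads from stretches they share may have been split or dropped in the authors' counting. Scd2 alone made up 28.1% of the members' summed CPM.

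Acly, which makes cytosolic acetyl-CoA from citrate, followed at 179 ± 1.38 FPKM. Acat2, the cytosolic thiolase, at 113 ± 4.58 FPKM, and Insig1, at 110.2 ± 3.86, differed by less than their spread. So did Hmgcs1, which makes HMG-CoA, at 99.3 ± 4.24 FPKM, and Cyp51, the lanosterol demethylase, at 98.8 ± 2.46. Among the regulators Srebf2 was at 41.4 ± 0.703 FPKM, above Scap at 9.29 ± 0.104 and Srebf1 at 7.04 ± 0.281. The lowest enzyme was Acss2, which makes acetyl-CoA from acetate, at 2.81 ± 0.117 FPKM. At the bottom came Abca1 and Abcg1, at 0.0700 ± 0.0300 and 0.0600 ± 0.0436 FPKM, within their spread of each other.

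**Figure D1:**
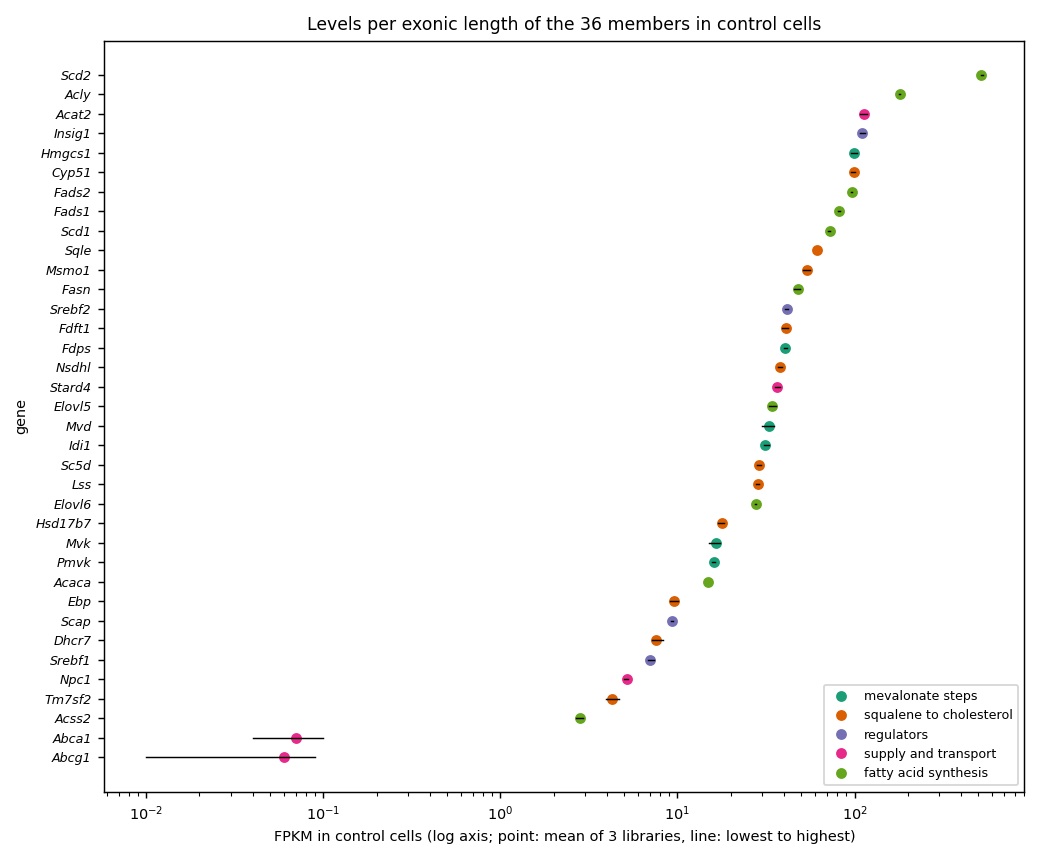
FPKM of each gene in control cells on a log axis, with the mean of 3 libraries as a point, the lowest to highest library as a line, and colour for the gene's role. Scd2 at 520.5 FPKM lies far to the right of the median of 33.5, and Abca1 and Abcg1 lie alone near 0.06.

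Irradiated cells were first set against control cells, to see how UVA alone went with these genes. Fasn, fatty acid synthase, showed the largest called change, at 1.73 times its control level. Fatty acid genes and regulators were called in both directions, while 5 of 6 mevalonate genes and 9 of 11 genes from squalene to cholesterol were not called. Of the 36 members, 8 rose and 8 fell at an adjusted p below 0.05 in edgeR (44.4%), where the background is 29.3% of 14151 tested genes (14.7% higher, 14.6% lower). Unadjusted p-values under 0.05 were found for 21 members, against 38.9% of all genes. The 3 libraries of each group did not overlap for 9 members that were higher and 9 that were lower, against 42.0% of all genes either way. The median log2 fold change was -0.02 and the median size 0.15, where all genes have 0.00 and 0.16. The median size of the estimated changes was thus about the same for members and for all genes. Such sizes include noise, and its part in either median was not tested. The part of the members' high levels in the share called was not tested either.

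Fatty acid synthesis held 8 of the 16 calls, with 3 of its 10 genes higher and 5 lower (80.0% called, against 29.3% of all genes). Fasn, which assembles palmitate (ENSMUSG00000025153, chromosome 11, 120696672 to 120715373 on mm39), was at 530.1, 494 and 540.3 CPM in control libraries. It reached 889, 868 and 956 CPM with UVA and 859, 924 and 863 with UVA and arbutin. Every irradiated library lay far above every control library, and the UVA and co-treated values overlapped. On the log2 scale Fasn rose by 0.79 ± 0.04 with UVA (SE; 95% interval 0.71 to 0.88; adjusted p = 2.31e-14).

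Acaca and Elovl6 also rose, by less than Fasn. Acaca, acetyl-CoA carboxylase, which supplies malonyl-CoA, was at 252, 253 and 253 CPM in control and 297, 281 and 269 with UVA. These groups did not overlap, and the rise was 0.16 ± 0.04 in log2 (adjusted p = 0.00379). Elovl6, which lengthens palmitate to stearate, went from 178, 176 and 177 to 209, 206 and 189 CPM, a rise of 0.18 ± 0.05 (adjusted p = 0.00335), also without overlap. Acly stood at 0.08 ± 0.04 and was not called (adjusted p = 0.109).

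The desaturases and the elongase of polyunsaturated chains were lower or not called. Scd1 was at 345, 355 and 357 CPM in control and 327, 319 and 294 with UVA, a log2 change of -0.17 ± 0.04 (adjusted p = 0.00287). Scd2 was at 2799.5, 2869 and 2826 against 2574, 2665 and 2421 CPM, -0.15 ± 0.04 in log2 (adjusted p = 0.00444). Neither overlapped between the groups. Fads2, the delta-6 desaturase, went from 317, 311 and 317 to 275, 285 and 262 CPM without overlap, -0.20 ± 0.04 (adjusted p = 0.000397). Its relative Fads1, the delta-5 desaturase, stood at -0.09 ± 0.04 and was not called (adjusted p = 0.127), though without UVA replicate 2 it was lower at -0.12 (adjusted p = 0.0443). Elovl5 went from 126, 116 and 116 to 105, 104 and 99.7 CPM, -0.21 ± 0.05 (adjusted p = 0.00109), again with all UVA libraries below control.

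Acss2 (ENSMUSG00000027605, chromosome 2, 155359868 to 155427644) had the largest called decrease. It was at 28.6, 27.0 and 29.5 CPM in control and 19.0, 23.3 and 20.9 with UVA. No UVA library reached the lowest control library. Its log2 change was -0.43 ± 0.08 (95% interval -0.60 to -0.26; adjusted p = 0.000195). The glutathione synthetase gene Gss shares 22544 bases of gene span with it on the other strand and stood at 0.32 ± 0.08. Strandedness of the counting is not stated, so reads of such partners may not be separated. Shorter overlaps on opposite strands join Srebf1 with Rai1 (109 bases) and Cyp51 with Akap9 (166). Tm7sf2 shares 532 bases with Vps51 on the same strand, where stranded counting would not separate them either.

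**Figure D2:**
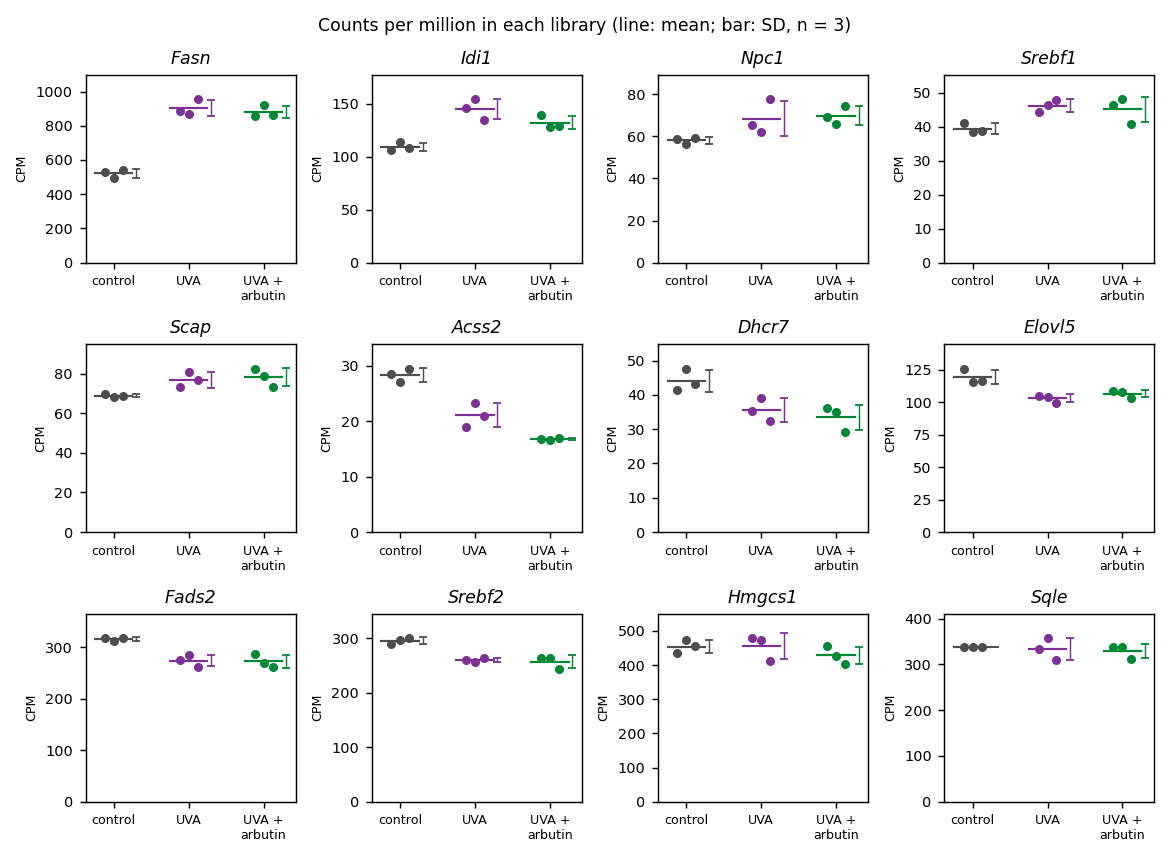
CPM of 12 genes in each of the 9 libraries, on axes from 0, with the group mean as a line and the SD as a bar beside it (n = 3). Fasn shows a wide gap between control and irradiated libraries, Acss2 is lowest in the co-treated group, and the UVA values of Hmgcs1 and Sqle spread around those of control.

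All 4 regulators were called, against 29.3% of all genes, each by a small amount. Srebf2 (ENSMUSG00000022463, chromosome 15, 82031382 to 82089580) was at 289.6, 298 and 300.3 CPM in control and 259, 257 and 264 with UVA, a log2 change of -0.19 ± 0.04 (adjusted p = 0.000792). Srebf1 (ENSMUSG00000020538, chromosome 11, 60089915 to 60113407) was at 41.2, 38.4 and 38.8 CPM in control and 44.3, 46.3 and 48.0 with UVA, 0.23 ± 0.07 in log2 (adjusted p = 0.0108). Neither overlapped between groups, and the pair of factor genes went opposite ways. Scap was at 69.6, 68.2 and 68.9 against 73.0, 81.0 and 76.7 CPM, also apart, at 0.16 ± 0.06 (adjusted p = 0.0307). Insig1, both a brake on SCAP and an SREBP target, was at 330.0, 352 and 336 CPM in control and 379.9, 403 and 350.3 with UVA, where the lowest UVA library lay within the control range. Its log2 change was 0.15 ± 0.04 (adjusted p = 0.00908).

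Only the Srebf2 call among these stood under all 15 alternatives. Insig1 lost its call without control replicate 1 (adjusted p = 0.0641), control replicate 3 (0.0506) or UVA replicate 2 (0.0939). Srebf1 lost it without control replicate 2 (adjusted p = 0.0513), control replicate 3 (0.0514) or UVA replicate 3 (0.0535). Scap lost it without any one of the control libraries, UVA replicate 2 or UVA replicate 3, with adjusted p up to 0.153. Limma on FPKM also ended the calls of Insig1, Srebf1 and Scap (limma adjusted p = 0.0569 to 0.111). Using no filter on low counts ended that of Scap (adjusted p = 0.0567).

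Among the mevalonate steps 1 of 6 genes rose and 0 fell (16.7% called, against 29.3% of all genes). Idi1, the isomerase that makes dimethylallyl diphosphate (ENSMUSG00000058258, chromosome 13, 8935537 to 8942487), was at 107, 114 and 108 CPM in control and 146, 155 and 135 with UVA. The groups were well apart, at 0.41 ± 0.05 in log2 (95% interval 0.30 to 0.51; adjusted p = 3.45e-07). Its neighbours in the pathway were not called: Mvd, which makes the substrate of IDI1, stood at -0.11 ± 0.07, and Fdps, which uses its product, at -0.09 ± 0.05. Without UVA replicate 2 both were lower, at -0.20 (adjusted p = 0.0476) and -0.16 (adjusted p = 0.0299). Hmgcs1 was at 434, 473 and 455 CPM in control and 479, 475 and 412 with UVA, on both sides of control, at 0.00 ± 0.05 (95% interval -0.10 to 0.10). The kinases Mvk and Pmvk stood at -0.06 ± 0.07 and -0.17 ± 0.09, not called.

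From squalene synthesis to cholesterol 0 of 11 genes rose and 2 fell (18.2% called, against 29.3% of all genes). Dhcr7, which makes cholesterol from 7-dehydrocholesterol (ENSMUSG00000058454, chromosome 7, 143376882 to 143402147), was at 41.5, 47.6 and 43.1 CPM in control and 35.4, 39.1 and 32.3 with UVA. All UVA libraries lay below control, at -0.31 ± 0.08 in log2 (adjusted p = 0.00373). Fdft1, squalene synthase, was at 172, 171 and 161 against 157, 159 and 145 CPM, also apart, at -0.13 ± 0.05 (adjusted p = 0.0344). That call was lost without control replicate 1 (adjusted p = 0.140), control replicate 2 (0.118) or UVA replicate 3 (0.199). Ctsb shares 774 bases with Fdft1 on the other strand and stood at 0.28 ± 0.04.

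The other 9 sterol genes ran from -0.15 for Tm7sf2, a sterol reductase, to 0.17 for Ebp, the sterol isomerase, with no call. Sqle, squalene epoxidase, was at 338, 339 and 339 CPM in control and 335, 358 and 309 with UVA. The UVA libraries spread to both sides of tight control values, and the log2 change was -0.02 ± 0.05 (95% interval -0.11 to 0.07). Cyp51 stood at 0.10 ± 0.04 (adjusted p = 0.0700) and Msmo1, the C4 methyl oxidase, at 0.11 ± 0.05 (adjusted p = 0.125). Without UVA replicate 3 both passed, at 0.15 (adjusted p = 0.00651) and 0.18 (adjusted p = 0.00337).

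In sterol supply and transport 1 of 5 genes rose and 0 fell, a smaller share called than the 29.3% of all genes. Npc1, which moves cholesterol out of lysosomes (ENSMUSG00000024413, chromosome 18, 12322749 to 12369457), was at 58.9, 56.2 and 59.3 CPM in control and 65.3, 62.2 and 77.7 with UVA. The groups did not overlap, and the log2 change was 0.24 ± 0.07 (adjusted p = 0.00807). UVA replicate 3 was the highest library, and without it the value was 0.13 (adjusted p = 0.137). Limma on FPKM did not call Npc1 either (limma adjusted p = 0.121 and 0.115 with pseudocounts 1 and 0.1). Rmc1 shares 967 bases with Npc1 on the other strand and stood at 0.37 ± 0.08. Stard4, a cytosolic sterol carrier, and Acat2 were not called, at -0.03 ± 0.05 and 0.06 ± 0.05.

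The LXR targets were measured by few reads. Abca1 had 13, 7 and 22 counts in the control libraries, 6, 1 and 16 with UVA and 5, 5 and 4 with UVA and arbutin. Control and UVA overlapped, and the log2 change of -0.82 ± 0.54 was not called (95% interval -1.94 to 0.29; adjusted p = 0.277). With replicate 3 of both irradiated groups left out, an alternative chosen after seeing the data, it was -1.84 (adjusted p = 0.0461). Abcg1 had 10, 1 and 14 counts in control and 3, 3 and 12 with UVA, which overlap, at -0.43 ± 0.65 (95% interval -1.75 to 0.90). Intervals this wide leave most changes undetectable at this depth.

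Without UVA replicate 3 the members called with UVA numbered 7 higher and 7 lower. The higher ones numbered 5 without control replicate 3, and 4 when FPKM values were tested with limma. Calls over all genes also became fewer. Those higher numbered 2078 with all libraries, 1633 without UVA replicate 3, 1569 without control replicate 3 and 1548 with limma (pseudocount 1). Those lower numbered 2064 with all libraries and 1703 without UVA replicate 3. Of the 16 member calls, 11 stood under all 15 alternatives, those of Fasn, Acaca, Elovl6, Scd1, Scd2, Fads2, Elovl5, Acss2, Idi1, Dhcr7 and Srebf2.

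**Figure D3:**
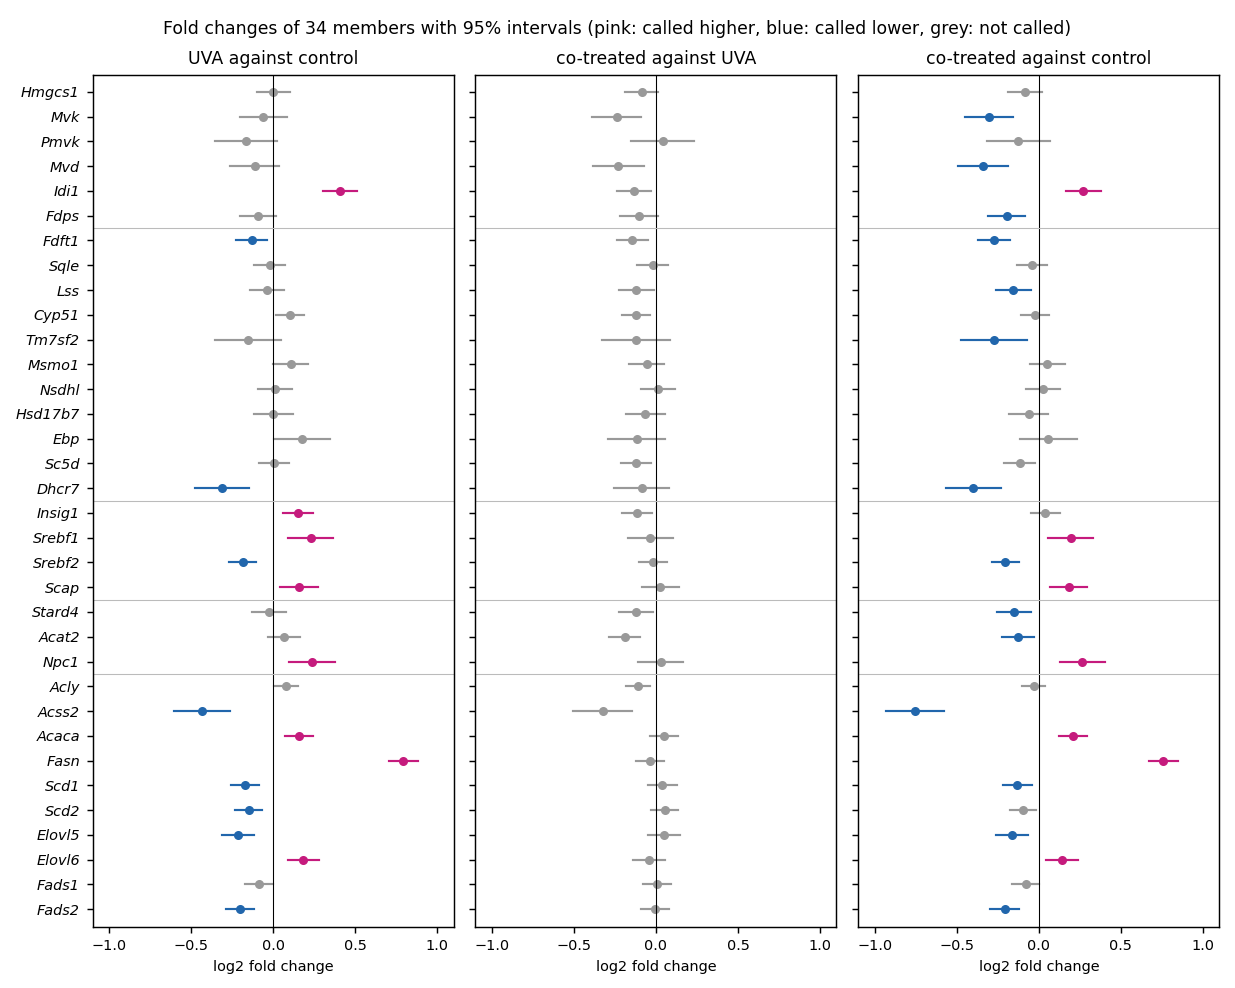
Log2 fold changes (points) with 95% intervals (lines) of 34 members in the 3 comparisons, grouped by role; pink is called higher, blue called lower, grey not called, and Abca1 and Abcg1 are left out because their intervals are far wider. Fasn stands alone at 0.79 with UVA, the middle panel has no called gene, and the right panel has 14 blue and 7 pink genes.

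A list of 57 other lipid genes had 49 tested, of which 9 rose and 15 fell with UVA (49.0%, against the same 29.3%). The smallest p-values among those that rose belonged to Acsl5, a long-chain acyl-CoA synthetase, at 0.67 ± 0.05 (152 ± 2.84 to 241 ± 9.93 CPM, SD, n = 3), its relative Acsl4 at 0.26 ± 0.05, and Hsd17b12, a reductase of fatty acid elongation, at 0.15 ± 0.04. Among those that fell they belonged to Lipa, lysosomal acid lipase, at -0.59 ± 0.06, the fatty acid receptor gene Cd36 at -1.35 ± 0.16 (8.39 to 3.30 CPM), and the fatty acid carrier Fabp5 at -0.47 ± 0.06. Further genes of SREBP control on that list differed among themselves. Insig2 was at -0.38 ± 0.08 (adjusted p = 0.000700) and the SREBP protease gene Mbtps2 at -0.21 ± 0.06 (adjusted p = 0.00416), whereas Spring1, needed for SREBP processing, was at 0.23 ± 0.08 (adjusted p = 0.0362). The other protease gene, Mbtps1, was not called, at -0.04 ± 0.05 (adjusted p = 0.560). Nr1h2, which encodes LXR beta, was at 44.7 CPM in control and not called, at -0.11 ± 0.07 (adjusted p = 0.281). Nr1h3, which encodes LXR alpha, had 1, 8 and 5 counts over the control, UVA and co-treated libraries and was not tested.

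Cells given UVA and arbutin were then set against cells given UVA alone, which bears on what arbutin added. No member was called by edgeR, DESeq2 or limma (0 of 36, against 0.0353% of all genes in edgeR, 0.0283% higher and 0.00707% lower). More members lay below the UVA level than above it, by small amounts. In all, 27 of 36 log2 fold changes were negative, with a median of -0.09 (all genes, 0.00). An unadjusted p under 0.05 was found for 12 of 36, against 6.76% of all genes. The groups did not overlap for 6 members, each lower with arbutin, against 10.8% of all genes. Such counts, here and by role below, do not treat 36 separate observations, because members shared low libraries. Replicate 3 was the lowest of its group for 28 members with UVA and for 29 after co-treatment. Leaving out 1 library, the negative values numbered from 22 without co-treated replicate 3 (median -0.04) to 29 without UVA replicate 1 (median -0.07) or co-treated replicate 1 (median -0.11). They numbered 25 without UVA replicate 2 (median -0.03) and 28 without UVA replicate 3 (median -0.13) or co-treated replicate 2 (median -0.08). With replicate 3 of both groups left out they numbered 24, with a median of -0.08.

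By role, 10 of 11 genes from squalene to cholesterol and 5 of 6 mevalonate genes were negative, while fatty acid genes were split 5 and 5. Acat2 (ENSMUSG00000023832, chromosome 17, 13161777 to 13179634), whose thiolase joins acetyl-CoA units ahead of HMG-CoA, had the smallest p. It was at 291, 323 and 283 CPM with UVA and 272, 249 and 264 with UVA and arbutin. The groups did not overlap, and the log2 difference was -0.19 ± 0.05 (95% interval -0.29 to -0.09; adjusted p = 0.222). It passed without UVA replicate 3 (adjusted p = 0.0347), without replicate 3 of both groups (0.0379) and without a filter on low counts (0.00768).

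Acss2 was at 16.8, 16.6 and 17.0 CPM with arbutin, below all UVA libraries, a log2 difference of -0.33 ± 0.09 (adjusted p = 0.375). Mvk was at 41.1, 46.0 and 39.5 CPM with UVA and 37.4, 34.8 and 34.8 with arbutin, also apart, at -0.24 ± 0.07 (adjusted p = 0.507). Fdft1, Acly and Sc5d, a sterol desaturase, likewise did not overlap, at -0.14 ± 0.05, -0.11 ± 0.04 and -0.12 ± 0.05. Mvd overlapped between groups, at -0.23 ± 0.07 (adjusted p = 0.626). Fasn was at -0.04 ± 0.04 (95% interval -0.12 to 0.05), where even the lower bound is small beside its rise of 0.79 with UVA. Srebf1 and Srebf2 were at -0.03 ± 0.07 and -0.02 ± 0.04. Abca1 had the lowest value, -0.61, on 23 counts with UVA and 14 with arbutin, and overlapped between groups. Abcg1, with 18 and 15 counts, also overlapped.

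**Figure D4:**
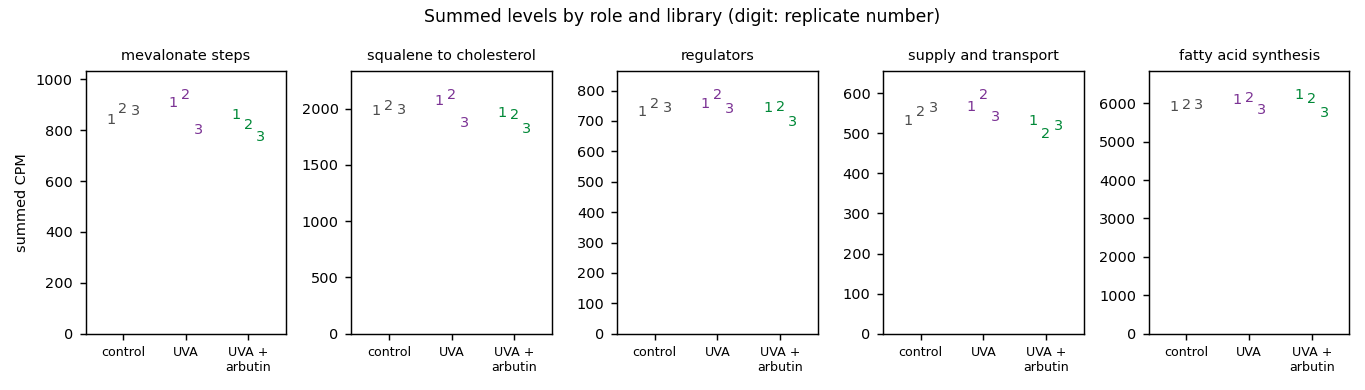
CPM summed over the members of each role in each library, on axes from 0, with the replicate number as plotting sign. Replicate 3 is the lowest UVA library in all 5 panels and the lowest co-treated library in 4 of them.

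Summed over the 11 genes from squalene to cholesterol, levels were 1976, 2026 and 1992 CPM in control, 2071, 2126 and 1871 with UVA and 1964, 1941 and 1817 with UVA and arbutin. The 6 mevalonate genes summed to 839, 882 and 875 CPM in control, then 907, 939.8 and 802 with UVA and 858, 819.9 and 773 after co-treatment. In both sums the UVA libraries lay on both sides of control and overlapped the co-treated ones. Supply and transport genes summed to 567, 597 and 541 CPM with UVA and 531, 498 and 518 with arbutin, without overlap.

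Co-treated cells were last set against control cells, a comparison that shares its libraries with the other two and is not independent of them. Here 7 of 36 members were higher and 14 lower (58.3%, against 25.8% of all genes, 13.0% higher and 12.9% lower). The groups did not overlap for 6 members that were higher and 18 that were lower, against 39.7% of all genes either way, and 24 had an unadjusted p under 0.05, against 35.8%. Fasn was at 0.76 ± 0.04 (adjusted p = 4.60e-14), Idi1 at 0.27 ± 0.05 (0.000174) and Acaca at 0.21 ± 0.04 (0.000295). Acss2 was at -0.76 ± 0.09 (adjusted p = 7.17e-08), with 27.0 to 29.5 CPM in control and 16.6 to 17.0 in co-treated cells.

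By role, 66.7% of mevalonate genes and 36.4% of those from squalene to cholesterol were called, against 25.8% of all genes. The shares were 60.0% in supply and transport, 75.0% for regulators and 70.0% in fatty acid synthesis. Of the mevalonate genes 3 fell: Mvd at -0.34 ± 0.07 (adjusted p = 0.000880), Mvk at -0.30 ± 0.07 (0.00196) and Fdps, farnesyl diphosphate synthase, at -0.20 ± 0.06 (0.00882). From squalene to cholesterol 4 of 11 fell: Dhcr7 at -0.40 ± 0.08 (adjusted p = 0.000414), Fdft1 at -0.27 ± 0.05 (5.32e-05), Tm7sf2 at -0.27 ± 0.10 (0.0420) and Lss, lanosterol synthase, at -0.16 ± 0.05 (0.0241). Stard4 and Acat2 were lower, at -0.15 ± 0.05 and -0.13 ± 0.05, and Npc1 was higher at 0.27 ± 0.07. Abca1 and Abcg1 were not called. Abca1 had the lowest value of all members, -1.43, on 42 counts in control and 14 in co-treated libraries. Its groups did not overlap, at 0.393 to 1.05 CPM in control and 0.221 to 0.305 in co-treated cells. Abcg1, with 25 and 15 counts, overlapped between groups. Srebf2 was lower at -0.20 ± 0.04, Srebf1 and Scap higher at 0.19 ± 0.07 and 0.18 ± 0.06, and Insig1 not called at 0.04 ± 0.04. In fatty acid synthesis Fads2, Elovl5 and Scd1 were lower, at -0.21 ± 0.04, -0.16 ± 0.05 and -0.13 ± 0.04, and Elovl6 higher at 0.14 ± 0.05.

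The lower members numbered 7 without co-treated replicate 3 and 8 without control replicate 3. Lower calls over all genes numbered 1436 and 1401 in those fits, against 1823 with all libraries. The higher members numbered 4 without control replicate 2, control replicate 3 or co-treated replicate 1. Higher calls over all genes numbered 1398, 1373 and 1722 there, against 1834. Of the 21 member calls, 10 stood under all 15 alternatives, those of Fasn, Acaca, Idi1, Acss2, Fads2, Dhcr7, Fdft1, Mvd, Mvk and Srebf2. Dropping co-treated replicate 1 ended the calls of Srebf1, Scap and Elovl6 (adjusted p = 0.0813 to 0.135). Leaving out co-treated replicate 2 ended the calls of Tm7sf2, Srebf1, Stard4, Acat2, Scd1 and Elovl6 (adjusted p = 0.0747 to 0.227). Dropping co-treated replicate 3 ended the calls of Fdps, Lss, Tm7sf2, Stard4, Acat2, Scd1 and Elovl5 (adjusted p = 0.0655 to 0.191). Leaving out control replicate 1 ended the calls of Lss, Tm7sf2, Elovl5 and Elovl6 (adjusted p = 0.0608 to 0.105). Dropping control replicate 2 ended the calls of Lss, Srebf1, Scap, Acat2, Scd1 and Elovl6 (adjusted p = 0.0536 to 0.197). Leaving out control replicate 3 ended the calls of Fdps, Lss, Tm7sf2, Srebf1, Scap, Stard4, Acat2, Scd1 and Elovl6 (adjusted p = 0.0517 to 0.236). With all 9 libraries, DESeq2 ended the calls of Tm7sf2, Srebf1 and Acat2 (DESeq2 adjusted p = 0.0505 to 0.0642). Limma on FPKM ended those of Fdps, Lss, Tm7sf2, Srebf1, Scap, Stard4, Acat2, Npc1 and Elovl6 (limma adjusted p = 0.0559 to 0.109). Using no filter on low counts ended the Srebf1 call (adjusted p = 0.0683).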

How the data were processed

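Per the labels' protocols, libraries were made from total RNA of NIH/3T3 cells with the VAHTS Universal V8 kit. Tools listed in the submitters' processing notes, without roles, are HTSeq 0.6.1, HISAT2 2.2.1, cutadapt 1.9.1 and bcl2fastq 2.20.0.422, and the build is mm39. Strandedness and the annotation release were not given in the sources used here. Per the file headers, the authors deposited a raw count and an FPKM value per gene and library. The deposited FPKM equals the count divided by exonic size and library total (510219 of 510219 values within 0.01). Columns named NC were taken as control because the other prefixes match the other titles.

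Counts were tested with edgeR 4.0.16 in R 4.3.3: filterByExpr (14151 genes kept), TMM scaling, and a two-sided quasi-likelihood F-test in 1 fit of all 9 libraries on group. Calls are at p below 0.05 after Benjamini-Hochberg adjustment across the tested genes, and adjusted p-values are from this test unless another tool is named. Intervals are 95%. All 36 members are accounted for; those given in full are called members whose groups do not overlap and 11 members named in the plan (Srebf1, Srebf2, Insig1, Scap, Hmgcs1, Sqle, Fasn, Scd1, Scd2, Abca1 and Abcg1), with up to 3 genes each way from the wider list; Acat2 and others in the co-treated comparison, and Insig2, Mbtps1, Mbtps2, Spring1, Nr1h2, Nr1h3 and the markers given with fold changes, were named after their values were seen. The members and lists were chosen with earlier results of these data known. Alternatives were RLE scaling, other count filters, DESeq2 1.42.0, limma 3.58.1 on log2(FPKM + 1) and log2(FPKM + 0.1), the 2 compared groups alone, a replicate block, and leaving out libraries. The scripts were tested on simulated counts.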

Additional observations from a re-analysis of the deposited data

How the results depend on the processing

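No member called in a comparison changed direction under any of the 15 alternatives run for it. With FPKM tested by limma (pseudocount 1 or 0.1) 4 members were higher with UVA, and against control 3 co-treated members were higher and 9 lower. Over all genes limma with pseudocount 1 also called fewer than edgeR. It called 1548 higher with UVA, and 1415 higher and 1579 lower for co-treated against control. The cause was not tested. Without any filter on low counts 1 member, Acat2, was lower in co-treated than in UVA cells, and the same count of 1 was found with both replicate-3 libraries of the irradiated groups left out. Leaving out 1 library at a time gave 5 to 8 higher and 7 to 11 lower members with UVA, 0 to 0 higher and 0 to 1 lower for co-treated against UVA, and 4 to 7 higher and 7 to 16 lower for co-treated against control. Over all genes such fits called 1569 to 1907 higher and 1644 to 1932 lower with UVA, against 2078 and 2064 with all libraries. For co-treated against control they called 1373 to 1722 higher and 1401 to 1769 lower, against 1834 and 1823. Among members without a call, the sign of the value changed under some alternative for 8 with UVA, 16 for co-treated against UVA and 2 for co-treated against control. The labels give the same replicate numbers in each group and do not say whether these pair the samples. Correlations of same-numbered deviations ran from -0.00871 to 0.0756 over all comparisons, and from 0.039 to 0.0756 between UVA and co-treated libraries. Between UVA and co-treated libraries each of the 6 correlated best with its own number, a hint from the data only. With a replicate block 9 members were higher and 8 lower with UVA, 0 and 0 for co-treated against UVA, and 7 and 16 for co-treated against control. Abca1 and Abcg1 are limited by depth.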
